A study of Mus musculus with 8 samples.

Results

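The 10 genes described here belong to the Nodal signalling pathway. They encode the ligand Nodal, its co-receptor Tdgf1 (also called Cripto), the activin receptor Acvr2b, the effectors Smad2 and Smad3, the secreted inhibitors Lefty1, Lefty2 and Fst, and the intracellular inhibitors Smad7 and Skil. They were taken by name, through the Ensembl identifiers of the count table, and make up 10 of its 55421 identifiers. All 10 were among the 14647 genes with enough reads to be tested.

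Polyadenylated RNA was sequenced from E14 mouse embryonic stem cells of 129/Ola background, a line that comes from the blastocyst. The miR-290-295 microRNA cluster was knocked out in all groups, the control group included, and cells that still carry the cluster were not analysed here. The cells were grown on gelatin with serum and LIF, a cytokine that maintains self-renewal, and were transfected for 36 h with 5 nM of a siPOOL, that is, many siRNAs pooled against the same transcript. The siTfap4 group received a siPOOL against Tfap4, a basic helix-loop-helix factor that binds E-boxes. The siWiz group received one against Wiz, a zinc finger partner of H3K9 methyltransferases, and the siZic2 group one against the zinc finger factor Zic2. The siNeg group received the negative control siPOOL. Each group held 2 libraries, stated to be biological duplicates; the labels do not say whether the knockout cells were 1 clone or how the duplicates were separated, so p-values measure the spread between these libraries.

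The libraries held 8326675 to 13788856 counted reads, with the siTfap4 libraries the smallest. The targeted transcript averaged 13.9 CPM in siTfap4 against 35.3 CPM in siNeg for Tfap4, 18.2 CPM in siWiz against 48.0 CPM in siNeg for Wiz, and 1.99 CPM in siZic2 against 3.35 CPM in siNeg for Zic2. Zic2 rested on few reads, 31 and 17 in siZic2 against 54 and 23 in siNeg. It averaged 2.30 CPM in siWiz and 5.80 CPM in siTfap4, which were not targeted at it. CPM, the unit of all levels here, are read counts scaled to a common library size with TMM factors. Of these 3 differences, the one of Tfap4 passed the test across all genes (edgeR adjusted p = 0.00417), and those of Wiz (adjusted p = 0.708) and Zic2 (adjusted p = 1) did not. All 8 embryonic stem cell markers examined (Pou5f1, Sox2, Nanog, Zfp42, Esrrb, Klf4, Utf1 and Dppa5a) were counted in every library. Their summed level was 1999 to 2054 CPM in siTfap4, 2298 to 3011 CPM in siWiz, 2859 to 3183 CPM in siZic2 and 2589 to 2679 CPM in siNeg. The markers moved in different directions in siTfap4: Pou5f1 was higher at 52.7 CPM in siTfap4 against 26.0 CPM in siNeg (edgeR adjusted p = 0.0159), while Nanog (128 CPM against 357 CPM, adjusted p = 0.0142) and Dppa5a (6.49 CPM against 432 CPM, adjusted p = 0.000365) were lower. The other 5 did not pass, with Sox2, Klf4 and Utf1 above siNeg and Zfp42 and Esrrb below it. Markers of mesendoderm, trophectoderm, primitive endoderm, neural cells and fibroblasts summed to at most 27.5 CPM in any library, a value of the neural list, in which Neurog2 was at 0 throughout.

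Nodal is a secreted ligand of the TGF-beta superfamily. With a co-receptor of the Cripto family it binds a pair of type I and type II activin receptors, which phosphorylate Smad2 and Smad3; these enter the nucleus with Smad4 and act with partners such as the forkhead factor Foxh1. Lefty1 and Lefty2 are direct targets of the pathway that block Nodal and its co-receptor, and Smad7 and Skil are induced feedback inhibitors. Mouse embryonic stem cells express Nodal and its Lefty antagonists, and the pathway directs mesendoderm formation when the cells leave the pluripotent state. In zebrafish and human cells, Lefty genes are known targets of microRNAs that share their seed with members of the miR-290-295 cluster.

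The sequences of the missing microRNAs are shown first because every library lacks them. The RefSeq table for GRCm38.p6 places the cluster on chromosome 7. The 3 of its mature microRNAs below share 1 seed, bases 2 to 8, which is in capitals.
miR-291a-3p: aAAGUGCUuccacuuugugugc
miR-294-3p: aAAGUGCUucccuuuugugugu
miR-295-3p: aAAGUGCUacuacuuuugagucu
A match to this seed, the letters AGCACTT, was found in the 3′ UTR of 3 of the 10 genes, Lefty1, Lefty2 and Smad2, in GENCODE M21 transcripts. Among 20851 mouse 3′ UTRs, 14.1% held at least 1 such match. Their median length was 912 bases, and they were not matched in length to the 10 genes. A match to bases 2 to 7 alone was also found in Nodal, Smad7 and Skil, with no share over all 3′ UTRs to set beside it. The sites of both Lefty genes are given with the flanking bases on the plus strand, with the match in capitals. They lie at chr1:180938202-180938230 in Lefty1 and at chr1:180897906-180897934 in Lefty2 (GRCm38).
Lefty1: actgtatgcgaAGCACTTacatgtataga
Lefty2: cacccagtttaAGCACTTacatgggtaaa
The Lefty1 match starts at base 238 of a 3′ UTR of 425 bases, and the Lefty2 match at base 104 of 1290 bases. Smad2 held 3 matches in a 3′ UTR of 6233 bases. A match is a description of the sequence and not a measured site.

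The RefSeq promoter table held 4 of the 10 genes (Nodal, Tdgf1, Acvr2b and Smad3), each with 250 bases before and 50 bases after the start. They were searched on both strands for AATNNACA, for CAGACA, a SMAD box, and for CAGCTG, the E-box bound by Tfap4. The E-box was added after the data were seen. AATNNACA is a loose pattern for Foxh1 that allows any base at each N, and a stricter form was not searched. The Tdgf1 promoter held 2 matches to AATNNACA, both reading AATTTACA, and neither of the other motifs. The matches start 127 and 101 bases before the transcription start. It is printed because Tdgf1 is one of the genes with the lowest level in siTfap4, as described below. The 250 bases before the start lie at chr9:110946159-110946408 on the minus strand (GRCm38.p6), with the matches in capitals.
Tdgf1 promoter: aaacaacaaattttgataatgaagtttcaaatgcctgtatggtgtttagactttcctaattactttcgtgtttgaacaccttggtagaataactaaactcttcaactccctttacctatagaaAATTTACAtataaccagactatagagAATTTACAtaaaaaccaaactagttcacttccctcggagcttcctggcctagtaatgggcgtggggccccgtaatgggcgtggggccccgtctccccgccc
The promoters of Nodal, Acvr2b and Smad3 held none of the 3 motifs in this window. Of 32851 mouse promoters of the same length, 12.2% held AATNNACA, 21.0% the SMAD box and 16.3% the E-box.

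The group means of the 10 genes lay close to each other, Fst apart. The mean of the highest group exceeded that of the lowest by 1.14-fold for Nodal and by 1.25- to 1.67-fold for the other genes, and by 5.26-fold for Fst, which rested on few reads. In no gene did neighbours in the order of the 4 group means differ past the test, and across all pairs of groups 1 difference passed it, that of Skil between siTfap4 and siZic2. Since these are bulk libraries, fewer cells that express a gene and less RNA per cell cannot be told apart.

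The ligand gene Nodal (ENSMUSG00000037171, chr10:61417972-61425338, plus strand, like all gene positions here in GENCODE M21 for GRCm38) had 20.8 and 21.2 CPM in siTfap4, 22.9 and 24.7 CPM in siWiz, 20.9 and 21.9 CPM in siZic2, and 18.2 and 23.6 CPM in siNeg, from 168 to 301 reads per library. The siNeg libraries spanned the values of siTfap4 and siZic2, and 1 siWiz library lay above all others. Against siNeg the fold was 1.01 in siTfap4 (95% confidence interval 0.697 to 1.45), 1.14 in siWiz (0.793 to 1.64) and 1.02 in siZic2 (0.712 to 1.47). These intervals bound a change of Nodal and do not show that there was none.

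Tdgf1 (ENSMUSG00000032494, chr9:110939603-110946158, minus strand), the co-receptor, had 411 and 538 CPM in siTfap4, 773 and 594 CPM in siWiz, 723 and 796 CPM in siZic2, and 750 and 697 CPM in siNeg. Both siTfap4 libraries lay below all 6 others. The level was 474 ± 89.6 CPM in siTfap4 and 724 ± 37.9 CPM in siNeg (SD, n = 2 each), a log2 fold change of -0.61 (SE 0.24) that did not pass the adjustment over all genes (edgeR adjusted p = 0.102). The order of the means was siZic2, siNeg, siWiz and siTfap4.

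Acvr2b (ENSMUSG00000061393, chr9:119402118-119434995, plus strand), a type II receptor for activins and Nodal, had 112 and 74.8 CPM in siTfap4, 64.5 and 69.6 CPM in siWiz, 71.0 and 68.7 CPM in siZic2, and 68.7 and 64.0 CPM in siNeg. Both siTfap4 libraries lay above the rest, 1 of them by little. The level was 93.3 ± 26.2 CPM in siTfap4 and 66.3 ± 3.30 CPM in siNeg (SD, n = 2 each; log2 fold change 0.49, SE 0.24, edgeR adjusted p = 0.172). Without the second siTfap4 library the log2 fold change was 0.74 and passed the test (adjusted p = 0.0398), and without the first it was 0.16 (adjusted p = 0.759), so the value rests on the first siTfap4 library.

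Smad2 (ENSMUSG00000024563, chr18:76241580-76310963, plus strand) and Smad3 (ENSMUSG00000032402, chr9:63646767-63757994, minus strand) encode the receptor-activated effectors. Smad2 had 35.8 and 26.7 CPM in siTfap4, 19.2 and 19.96 CPM in siWiz, 22.4 and 23.2 CPM in siZic2, and 18.8 and 28.9 CPM in siNeg. The siTfap4 libraries were above those of siWiz and siZic2, while 1 siNeg library, at 28.9 CPM, was above the lower siTfap4 one. Smad2 averaged 31.3 CPM in siTfap4 and 23.9 CPM in siNeg (log2 fold change 0.39, SE 0.27, edgeR adjusted p = 0.336). Smad3 had 9.67 and 10.4 CPM in siTfap4, 12.1 and 12.6 CPM in siWiz, 14.9 and 11.0 CPM in siZic2, and 11.4 and 14.5 CPM in siNeg. Both siTfap4 libraries were the lowest, at 78 and 89 reads. The difference from siNeg was -0.36 on the log2 scale (SE 0.28, edgeR adjusted p = 0.399). The differences of the 2 effector genes from siNeg thus had opposite signs in siTfap4, with neither past the test.

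The secreted inhibitors Lefty1 (ENSMUSG00000038793, chr1:180935022-180938400) and Lefty2 (ENSMUSG00000066652, chr1:180893108-180899103) lie on the plus strand with 35918 bases between them. Lefty1 had 144 and 211 CPM in siTfap4, 122 and 221 CPM in siWiz, 133 and 207 CPM in siZic2, and 98.3 and 175 CPM in siNeg. Lefty2 had 112 and 200.5 CPM in siTfap4, 113 and 189 CPM in siWiz, 159 and 209 CPM in siZic2, and 111 and 158 CPM in siNeg. For both genes the second library of each group was higher than the first, and the groups overlapped except for Lefty2 in siZic2, whose 2 libraries were above both of siNeg, the nearest by 159 against 158 CPM. The log2 fold change against siNeg was 0.38 for Lefty1 in siTfap4 (SE 0.35), 0.32 in siWiz (SE 0.35) and 0.32 in siZic2 (SE 0.35). For Lefty2 it was 0.22 in siTfap4 (SE 0.32), 0.17 in siWiz (SE 0.32) and 0.45 in siZic2 (SE 0.32). None of these passed the test. All 3 comparisons share the 2 siNeg libraries, which held the lowest mean for both genes.

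The coding sequences of Lefty1 and Lefty2, 1107 bases each, were 91.9% identical, which raises the question of shared reads. The last 300 bases of their transcripts, where the reads of this 3′ method fall, were 46.8% identical, and none of the 251 50-base words in the last 300 bases of any of the 10 genes occurred in another gene. Of the reads of the pair, Lefty1 gave 56.3% and 51.2% with siTfap4, 52.0% and 53.9% with siWiz, 45.7% and 49.8% with siZic2, and 47.0% and 52.6% with siNeg. The exact binomial 95% interval, which covers counting error only, was 54.1% to 58.5% in the first siTfap4 library and 44.1% to 47.2% in the first siZic2 library. The share was below 50% in both siZic2 libraries and above it in both siTfap4 and both siWiz libraries, with the siNeg libraries on either side. The intervals of the second siTfap4 library (49.6% to 52.9%) and the second siZic2 library (48.2% to 51.3%) included 50%. A difference in share between groups was not tested.

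Fst (ENSMUSG00000021765, chr13:114452290-114458951, minus strand) encodes follistatin, which binds activins. It had 2 and 6 reads in siTfap4, 16 and 4 reads in siWiz, 38 and 22 reads in siZic2, and 44 and 4 reads in siNeg. The siNeg libraries differed from each other by 9.52-fold in CPM (3.66 and 0.384), more than any pair of groups did. The siTfap4 libraries were at 0.248 and 0.703 CPM, and 3 reads correspond to 0.208 to 0.372 CPM in these libraries. The log2 fold change of siTfap4 against siNeg was -2.07 (SE 0.96, edgeR adjusted p = 0.154), and it became 0.33 without the first siNeg library and -2.91 without the second (adjusted p = 0.0356). Fst passed the filter on low values through the libraries in which it was high, so its differences are given as values and support nothing.

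The intracellular inhibitors were Smad7 (ENSMUSG00000025880, chr18:75367529-75395935, plus strand), which blocks the activated receptors, and Skil (ENSMUSG00000027660, chr3:31095058-31122577, plus strand), the co-repressor SnoN that binds Smad complexes. Smad7 had 40.5 and 41.0 CPM in siTfap4, 49.0 and 36.6 CPM in siWiz, 54.3 and 47.3 CPM in siZic2, and 55.4 and 37.8 CPM in siNeg. The siNeg libraries spanned the siTfap4 values (log2 fold change -0.19, SE 0.26, edgeR adjusted p = 0.639). Skil had 68.7 and 75.9 CPM in siTfap4, 121 and 88.9 CPM in siWiz, 131 and 109.9 CPM in siZic2, and 120.2 and 93.3 CPM in siNeg. As for Tdgf1, both siTfap4 libraries were below all 6 others. Skil averaged 72.3 ± 5.07 CPM in siTfap4 and 107 ± 19.0 CPM in siNeg (SD, n = 2 each), and the log2 fold change of -0.56 (SE 0.24) did not pass the adjustment (edgeR adjusted p = 0.128).

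**Figure D1:**
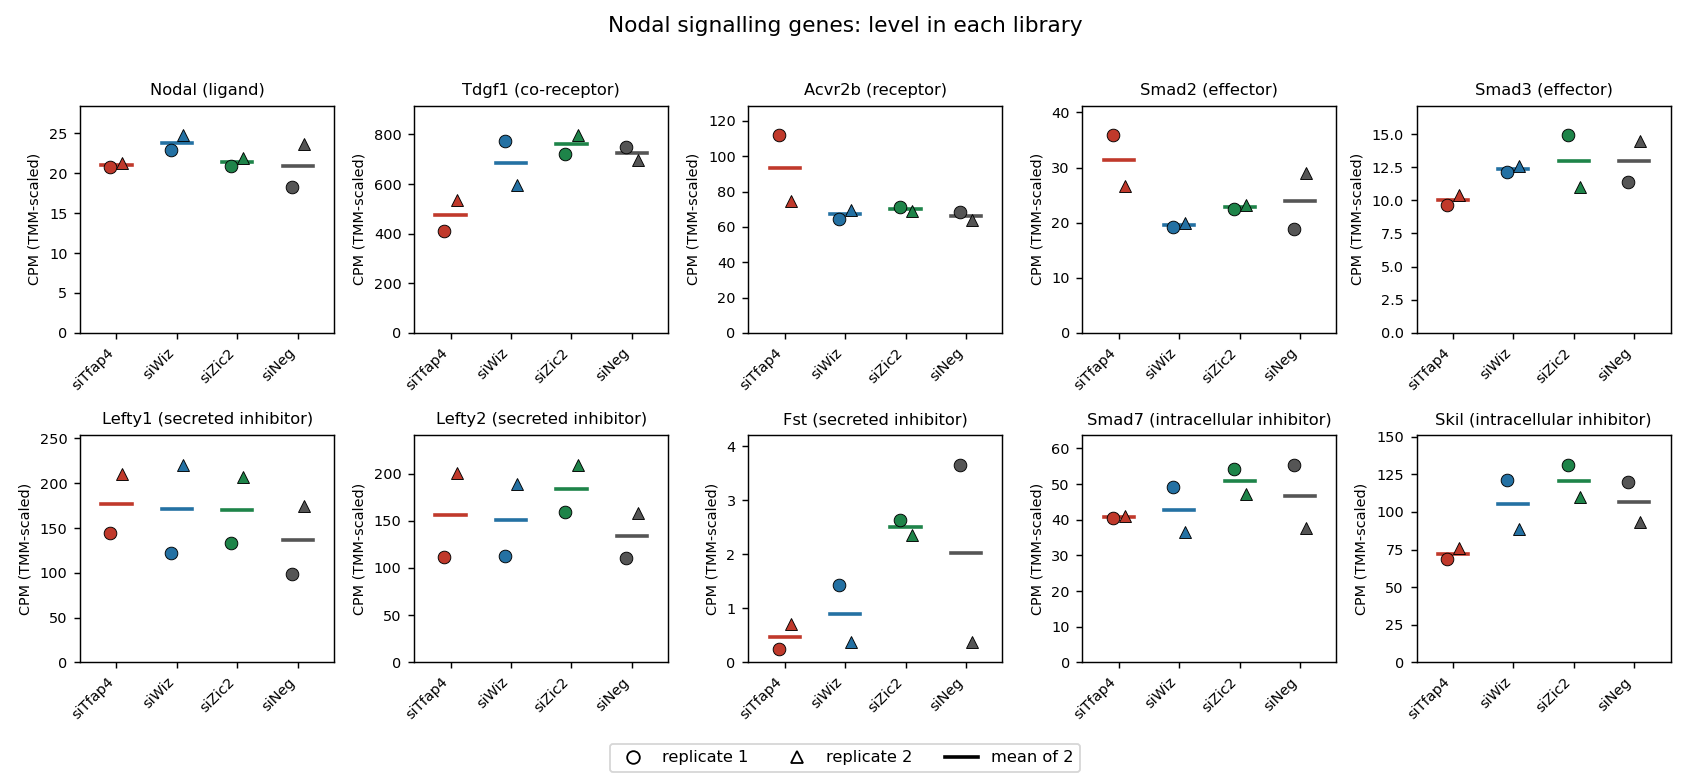
Level of each of the 10 genes in CPM (TMM-scaled, linear axis from 0) in the libraries of siTfap4, siWiz, siZic2 and siNeg; circles are replicate 1, triangles replicate 2 and lines the mean of 2. For Tdgf1 and Skil both siTfap4 libraries sit below all others, and for Lefty1 and Lefty2 the triangle is above the circle in every group.

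With the Tfap4 siPOOL, none of the 10 genes passed the test. Between siTfap4 and siNeg 0 of 10 did so (edgeR, adjusted p under 0.05), while 15.9% of all tested genes did, 4.24% higher and 11.7% lower. Tdgf1 and Skil were the 2 with an unadjusted p under 0.05; DESeq2 called 0 of the 10 and had 3 with an unadjusted p under 0.05. The median log2 fold change of the 10 genes was -0.09, with 5 above and 5 below 0, and that of all tested genes was 0.01. The CPM of the 2 groups did not overlap in 4 genes, Acvr2b above and Tdgf1, Smad3 and Skil below, a share under the 59.1% of all tested genes (29.6% above and 29.5% below). Of the 8 embryonic stem cell markers, 4 had a log2 fold change above 0 and 4 below it in siTfap4 against siNeg, Pou5f1 being called higher and Nanog and Dppa5a lower, and the siTfap4 libraries held fewer reads; their part in the values of Tdgf1 and Skil was not tested.

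No gene of the list passed the test between siWiz and siNeg, where 0% of all tested genes did, with 266 of them at an unadjusted p under 0.05 and 1 gene called by DESeq2. The log2 fold changes, Fst apart, ran from -0.28 (Smad2) to 0.32 (Lefty1), with a median over the 10 of -0.04, and the CPM of the groups overlapped for all 10 genes, while 25.1% of all tested genes did not overlap. At an unadjusted p under 0.05 there were 0 of the 10 with either edgeR or DESeq2.

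Between siZic2 and siNeg, too, 0 of 10 genes passed, against 0% of all tested genes, of which 86 were at an unadjusted p under 0.05; DESeq2 called 0 genes. The log2 fold change was above 0 for 9 of 10 genes, Fst among them, with a median of 0.10 against -0.00236 over all tested genes. Leaving out 1 library turned the sign for Nodal, Smad3, Lefty1, Fst and Smad7, so the count does not show a shared rise. Some of the changes were near 0, as for Smad3 (0.00582) and Nodal (0.0332). The largest was that of Lefty2 at 0.45, with 184 ± 35.6 CPM in siZic2 and 134 ± 33.3 CPM in siNeg (SD, n = 2 each; edgeR adjusted p = 1). Lefty2 and Acvr2b were the 2 genes whose CPM did not overlap between these groups, both above; of all tested genes 23.8% did not overlap, with 12.1% of the tested genes above.

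**Figure D2:**
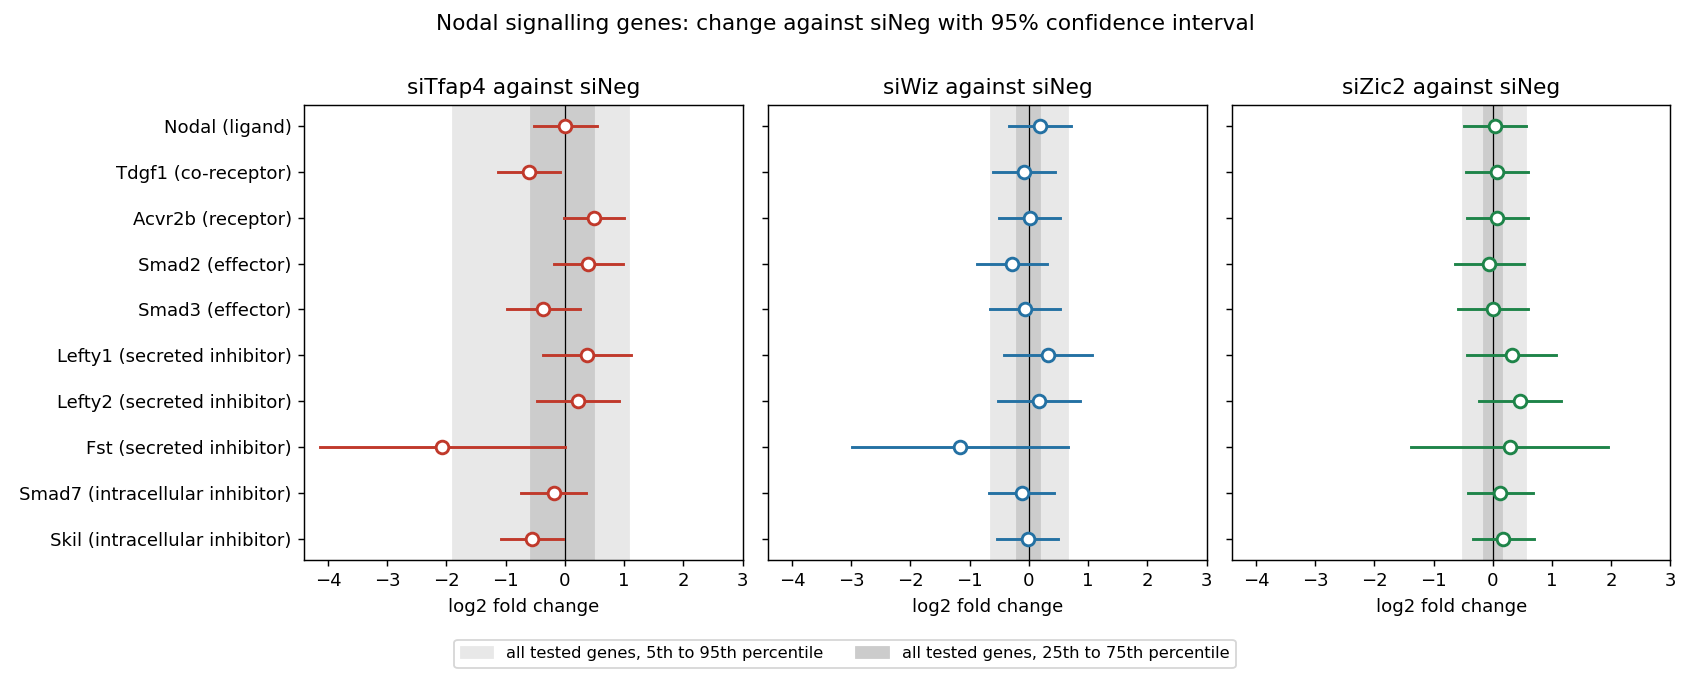
Log2 fold change of the 10 genes in siTfap4, siWiz and siZic2, each against siNeg, with bars for the 95% confidence interval; the grey bands hold the 5th to 95th and the 25th to 75th percentile of all tested genes. The points of siTfap4 spread from -2.07 (Fst) to 0.49 (Acvr2b), and the interval of Fst is the widest in all 3 panels.

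Skil was the gene whose difference between 2 siPOOLs passed the test. It averaged 72.3 ± 5.07 CPM in siTfap4 and 121 ± 15.1 CPM in siZic2 (SD, n = 2 each), a log2 fold change of -0.74 (SE 0.24, edgeR adjusted p = 0.0431). This made 1 of 10 genes called between siTfap4 and siZic2, where 23.1% of all tested genes were, 8.41% higher and 14.7% lower. Tdgf1 stood at 474 CPM in siTfap4 and 759 CPM in siZic2 and missed the threshold (log2 fold change -0.68, SE 0.24, adjusted p = 0.0585), while DESeq2 called it together with Skil. The CPM of the groups did not overlap in 7 genes, 2 above and 5 below, against 66.8% of all tested genes (32.9% above and 33.8% below). The 5 below include Fst, whose differences support nothing. The Skil call was lost without the first siTfap4 library (log2 fold change -0.68, adjusted p = 0.182), without the second (-0.82, adjusted p = 0.0540), without the first siZic2 library (-0.63, adjusted p = 0.250) and without the second (-0.87, adjusted p = 0.106). Its direction and size stayed near those of the full fit in all 4.

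Between siTfap4 and siWiz 0 of 10 genes passed, against 15.1% of all tested genes, with 3 at an unadjusted p under 0.05. These were Smad2 (31.3 CPM in siTfap4 and 19.6 CPM in siWiz, log2 fold change 0.68, adjusted p = 0.107), Tdgf1 (-0.53, adjusted p = 0.155) and Skil (-0.54, adjusted p = 0.146), all by edgeR; of the 10, DESeq2 called 0 and had 3 with an unadjusted p under 0.05. The CPM of the groups did not overlap in 6 genes, against 61.7% of all tested genes. The comparisons of siTfap4 with siWiz, siZic2 and siNeg share the siTfap4 libraries, so the low Tdgf1 and Skil values in each of them are not separate evidence. Between siWiz and siZic2 0 of 10 genes passed (0% of all tested genes, 384 at an unadjusted p under 0.05), of the 10, 0 had an unadjusted p under 0.05, and 0 genes of all were called by DESeq2. The CPM did not overlap in 3 of the 10 genes, Fst among them, against 35% of all tested genes.

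The 2 Lefty genes differed between the libraries of every group. The group means were within 1.30-fold of each other for Lefty1 and 1.37-fold for Lefty2. In the library numbered 2, Lefty1 was higher in 4 of 4 groups, by 1.46- to 1.81-fold, and Lefty2 in 4 of 4 groups, by 1.32- to 1.79-fold. Nodal was also higher there in 4 of 4 groups, by 1.02- to 1.30-fold. Acvr2b, Fst, Smad7 and Skil were higher in the library numbered 2 in 1 of 4 groups each. Of all tested genes, 12.5% were higher in 4 of 4 groups and 12.5% lower in 4 of 4. In a fit with both group and replicate number, chosen after the data were seen, the log2 difference of number 2 over number 1 was 0.72 for Lefty1 (SE 0.13, edgeR adjusted p = 0.0982) and 0.62 for Lefty2 (SE 0.14, adjusted p = 0.126). Neither passed the test, which 0.0273% of all tested genes (4 genes) did. The labels do not say that a number marks a shared culture or day.

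**Figure D3:**
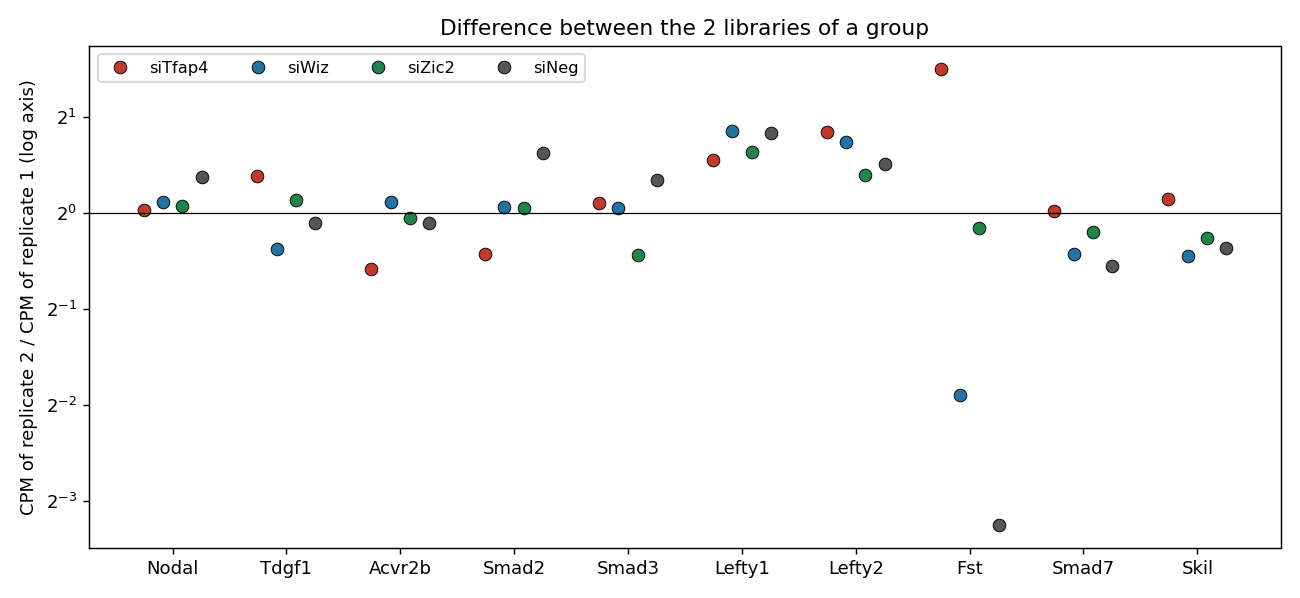
Ratio of CPM in replicate 2 to CPM in replicate 1 (log axis) for each of the 10 genes, with 1 point each for siTfap4, siWiz, siZic2 and siNeg; the line marks equal levels. All 4 points of Lefty1 (1.46 to 1.81) and of Lefty2 (1.32 to 1.79) lie above the line, and the siNeg point of Fst is the lowest at 0.105.

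The levels of some of the 10 genes ran together over the 8 libraries. Pearson's r of log2 CPM was 0.88 between Lefty1 and Lefty2, 0.90 between Tdgf1 and Skil, and -0.88 between Tdgf1 and Acvr2b. Spearman's rho for these pairs was 0.79, 0.79 and -0.64. The highest r, 0.93, was that of Fst and Smad7 (rho 0.90), where Fst rested on few reads. These describe 8 libraries in 4 groups, which share the siTfap4 difference and the difference between the library numbers, and no p is given. Over the same libraries, the most alike of 6296 (for Smad3 6297) genes with at least 20 CPM were Cd151 (r 0.97) and Sh3bgrl3 (0.97) for Nodal, Rbm34 (0.99) and Ddx20 (0.99) for Tdgf1, and Slc25a37 (0.99) and N4bp1 (0.98) for Acvr2b. For Smad2 they were Nsdhl (0.96) and Mepce (0.95), and for Smad3 Elf3 (0.97) and Kmt2b (0.95). For Smad7 they were Rsu1 (0.98) and Ppp4r3a (0.98), and for Skil Cpne3 (0.99) and Krit1 (0.99). Lefty2 was most alike to Pls3 (0.97) and Ccnd2 (0.93), and Lefty1 to Ube2j1 (0.97). These genes were picked as the highest of all candidates over only 8 libraries, which favours a high r. How high r runs for unrelated genes was not tested.

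Beyond the 10 genes, 37 other genes of Nodal and activin signalling were examined, of which 29 had enough reads to be tested. In siTfap4 against siNeg 2 of the 29 rose, 2 fell and 25 did not pass the test (edgeR, adjusted p under 0.05), with a median log2 fold change of -0.01 against 0.01 over all tested genes. The 4 called genes are 13.8% of the 29, near the 15.9% called over all tested genes (4.24% higher and 11.7% lower). In siWiz against siNeg 0 of 29 passed, with 1 at an unadjusted p under 0.05, and in siZic2 against siNeg 0 of 29 passed, with 0 at an unadjusted p under 0.05; DESeq2 called 0 in both. Among the 8 genes not tested, the ligand genes Gdf1 and Inhba, the receptor gene Acvr1c and the antagonist gene Cer1 had 0 reads in all 8 libraries. Foxh1, the partner of the Smad complex, had 0 and 0 reads in siTfap4, 3 and 1 reads in siWiz, 6 and 2 reads in siZic2, and 4 and 1 reads in siNeg.

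Of 5 tested receptor and co-receptor genes, 1 fell in siTfap4, Acvr1b, where 11.7% of all tested genes fell. It encodes the type I receptor of Nodal and activin, and had 20 and 40 reads in siTfap4 against 226 and 130 in siNeg, or 3.58 ± 1.56 CPM and 15.6 ± 4.45 CPM (SD, n = 2 each). It had 18.01 and 7.83 CPM in siWiz and 23.7 and 22.3 CPM in siZic2, so both siTfap4 libraries, at 2.48 and 4.69 CPM, were below all others. The log2 fold change against siNeg was -2.12 (SE 0.43, edgeR adjusted p = 0.00626). It no longer passed without the first siTfap4 library (-1.75, adjusted p = 0.0753) or without the first siNeg library (-1.77, adjusted p = 0.0508). The type II receptor gene Acvr2a, which was named after its values were seen, had 14 and 18 reads in siTfap4 against 66 and 41 in siNeg (log2 fold change -1.29, edgeR adjusted p = 0.0501). Its count is uncertain, since its 3′ end overlaps Orc4 on the other strand and the strand setting of the counting is not given in the sources used here.

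Of 11 tested inhibitor genes, 1 fell and 2 rose in siTfap4, against 11.7% lower and 4.24% higher over all tested genes. Tgif1, a homeodomain co-repressor of Smad complexes, had 107 and 401 reads in siTfap4 against 1757 and 1868 in siNeg, or 30.1 ± 23.9 CPM and 163 ± 23.7 CPM (SD, n = 2 each). In siWiz it had 160 and 148 CPM and in siZic2 176 and 175 CPM. Both siTfap4 libraries were below all others, and they differed between themselves at 13.3 and 47.0 CPM. The log2 fold change against siNeg was -2.43 (SE 0.41, edgeR adjusted p = 0.00247), with -1.80 without the first siTfap4 library (adjusted p = 0.00616) and -3.63 without the second (adjusted p = 3.61e-05). Its relative Tgif2, named after its values were seen, had 14.3 and 40.3 CPM in siTfap4 against 52.5 and 65.8 CPM in siNeg (log2 fold change -1.11, edgeR adjusted p = 0.0505); its end overlaps an antisense gene, which leaves the count uncertain.

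Nomo1 and Ncln, which encode partner proteins of the endoplasmic reticulum described as Nodal antagonists in zebrafish, were higher in siTfap4. Nomo1 had 153 and 90.0 CPM in siTfap4 against 61.6 and 59.2 CPM in siNeg (log2 fold change 1.01, SE 0.26, edgeR adjusted p = 0.0233). Ncln had 109.6 and 63.0 CPM in siTfap4 against 36.3 and 44.97 CPM in siNeg (log2 fold change 1.09, SE 0.28, edgeR adjusted p = 0.0229). In both genes the first siTfap4 library was the higher one. Without it neither passed, at 0.57 for Nomo1 (adjusted p = 0.244) and 0.62 for Ncln (adjusted p = 0.245). Nor did Nomo1 pass without the first siNeg library (adjusted p = 0.0929) or the second (0.0775), or Ncln without the first siNeg library (0.140).

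No tested gene passed among 4 ligand and processing genes, 5 effector and partner genes and 4 target genes in siTfap4, siWiz or siZic2 against siNeg. The gene of the highest level in each is given. Inhbb, a subunit of activins, had 96.3 and 118 CPM in siTfap4 against 113 and 135 CPM in siNeg. Wwtr1, the co-activator TAZ that binds Smad complexes, had 169 and 145 CPM in siTfap4 against 111 and 110 CPM in siNeg (log2 fold change 0.51, edgeR adjusted p = 0.126). The groups did not overlap for Wwtr1. Eomes, a T-box factor of mesendoderm, had 6.20 and 8.21 CPM in siTfap4 against 8.98 and 7.50 CPM in siNeg, from 50 to 108 reads per library, with overlapping groups.

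**Figure D4:**
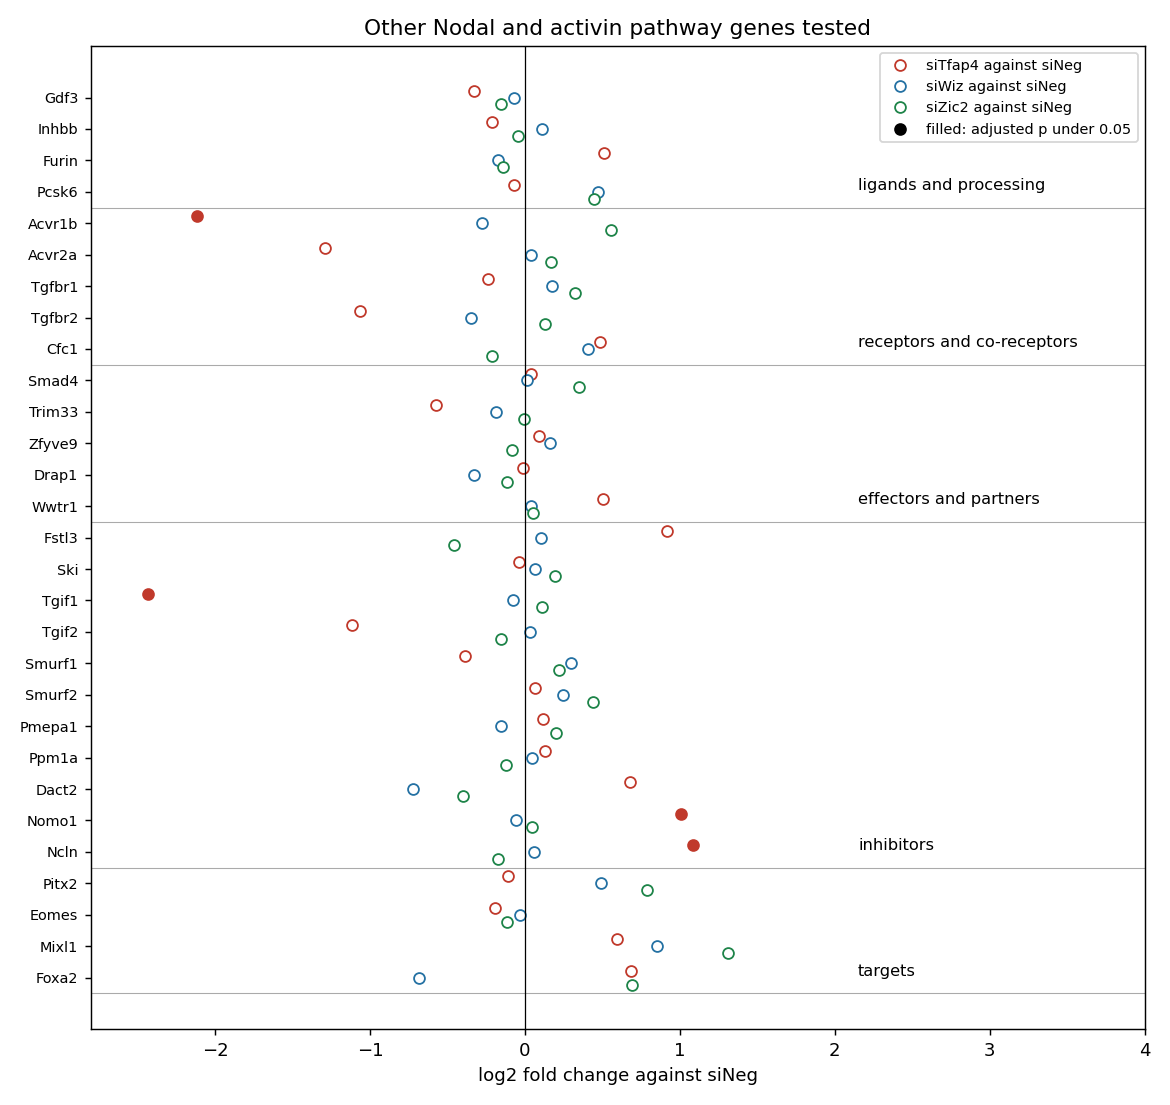
Log2 fold change of the 29 tested genes outside the list of 10, grouped by role, for siTfap4, siWiz and siZic2, each against siNeg; filled points passed an adjusted p under 0.05. The filled points are Acvr1b (-2.12), Tgif1 (-2.43), Nomo1 (1.01) and Ncln (1.09), all of siTfap4.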

How the data were processed

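Per the labels' protocols, RNA was extracted with Trizol and 500 ng went into QuantSeq 3′ FWD libraries. The deposited table gives raw read counts for Ensembl genes, which the authors did not normalize. The submitters' processing notes name Trim Galore and GRCm38; aligner, counter, annotation release, strand setting and molecular identifiers are not stated there. Of 55421 identifiers, 55154 matched a symbol in GENCODE M21 and 267 did not, and 0 columns stayed unmapped. Reads copied by PCR are not independent molecules, so counting intervals cover counting error only.

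Counts were filtered with filterByExpr (14647 genes left), scaled by TMM and given to edgeR 4.0.16 (limma 3.58.1, R 4.3.3) for a quasi-likelihood fit with 1 mean per group over all 8 libraries. It had 4 residual degrees of freedom and a common dispersion of 0.0495, or 22.2% as a biological coefficient of variation. P-values of each of the 6 comparisons were adjusted by Benjamini-Hochberg over all tested genes, with a threshold of 0.05. "Rose", "fell" and "called" mean passing it. Each SE was computed from the log2 fold change and its F statistic. Libraries of the same group differed beyond counting noise, with a chi-square of 17.7 to 37.7 per degree of freedom.

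The 10 genes, the lists of other pathway genes and markers and the tests were chosen with earlier results of these data known. The naming rule took all 10 genes, up to 4 called genes of each pathway list against siNeg or, with none called, the one of the highest mean CPM. For each of the 10 genes of at least 5 CPM it also took the 2 named genes with the highest Pearson correlation of log2 CPM (prior count 2) among those of at least 20 CPM. A gene that this rule named is not reported here. Alternatives were RLE size factors, library totals, a filter at 1 count, a filter at a mean of 5 CPM, the compared groups alone, a replicate block, DESeq2 1.42.0 and each library left out in turn; the library that remained in a group was then taken to vary like those of the other groups.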

Additional observations from a re-analysis of the deposited data

How the results depend on the processing

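Of 892 refitted log2 fold changes of the 10 genes, 819 kept their direction and side of the threshold, 14 newly passed it, 4 (all of Skil between siTfap4 and siZic2) no longer did, 0 called values changed sign and 55 uncalled ones did. With no filter beyond 1 count, 1 of the 10 was called between siTfap4 and siNeg (Fst, lower) and 3 between siTfap4 and siZic2 (Tdgf1, Fst and Skil, lower), 12 genes of all were called between siWiz and siNeg, and 23 between siWiz and siZic2. Between siTfap4 and siZic2, library totals gave 2 of the 10 (Tdgf1 and Skil), the compared groups alone 2 (Fst and Skil), DESeq2 2 (Tdgf1 and Skil) and the replicate block 2 (Tdgf1, adjusted p = 0.0327, and Skil). DESeq2 called 1 gene between siWiz and siNeg, and the compared groups alone gave 1411 genes between siTfap4 and siWiz, against 2207. The cause was not tested.

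Leaving out 1 library at a time, 0 to 1 of the 10 genes were called between siTfap4 and siNeg (Acvr2b without the second siTfap4 library, Fst without the second siNeg library), 0 to 1 between siTfap4 and siWiz (Acvr2b without the second siTfap4 library), and 0 to 3 between siTfap4 and siZic2. Over all genes the calls were 504 to 3322 (2330 with all libraries) between siTfap4 and siNeg, 401 to 3279 (2207) between siTfap4 and siWiz, and 905 to 4057 (3379) between siTfap4 and siZic2, with the lowest number in each without the first siTfap4 library. Of the 29 other pathway genes, 1 to 6 were called between siTfap4 and siNeg (4 with all libraries); Tgif1 was the gene called in every one of these fits.

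The same replicate numbers stand in all groups. Deviations of same-numbered libraries from their group means correlated at -0.0427 to 0.332 over the 6 pairs of groups, over 0.1 in 5 of them; with 1 pair of groups below it, 2 numbers and no label on their meaning, the numbers were not taken as pairs; the replicate block changed no other call of the 10 genes. With 2 libraries per group standard errors of the 10 genes against siNeg were about 0.24 or more on the log2 scale, which limits the differences that could be detected, and the few reads of Fst allow no statement on it.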
